A study of Mus musculus with 9 samples.

Results

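The keratin genes were described across primary prostate tumours and metastases of mice. Members were all genes whose mouse symbol is Krt followed by a number and at most 1 letter, so genes for keratin-associated proteins and Krtdap were not included. Of 47069 genes in the deposited counts, 54 were keratins, 28 of type I and 26 of type II. At least 1 count was found for 51 of them, and Krt12, Krt25 and Krt82 had none in any library. Enough counts for a test were found for 28 keratins among 18204 genes tested, and the other 26 are given by their counts.

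Bulk RNA was sequenced from 9 libraries, 3 each of primary prostate tumour, proximal metastasis in the epididymal fat and distal metastasis. All came from C57BL/6 mice aged about 9 to 10 months. All groups carried the genotype written Ctnnb1pc(ex3)delta/+, in which exon 3 of 1 copy of the beta-catenin gene is removed in the prostate and the protein is stabilised, among other engineered changes, so no group lacked these alleles. The distal samples are called diaphragm metastases in 1 label and lung in another, and which of them is right was not settled. The labels speak of 3 matched mice without saying which libraries share a mouse, so the p-values measure only the spread between these libraries, treated as independent. In bulk samples, fewer cells of a type and less RNA per cell cannot be told apart.

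Keratins form the intermediate filaments of epithelial cells, and each filament is built from pairs of 1 type I and 1 type II protein. Which pair a cell makes follows its place in the epithelium: Krt8 with Krt18 in simple and glandular cells, Krt5 with Krt14 in the basal layer, Krt1 with Krt10 in the upper layers of skin, and a further set in hair, nail and tongue. In the prostate, luminal cells are known for Krt8 and Krt18 and basal cells for Krt5 and Krt14, which makes these genes the usual labels of the 2 compartments. Type I genes lie together on mouse chromosome 11 and type II genes on chromosome 15, where Krt18, a type I gene, sits next to Krt8.

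The sequences upstream of 4 of these genes are shown because their levels in the tumours followed separate courses: Krt5 and Krt14 (basal layer) fell together in the metastases, Krt18 (simple epithelium) stayed among the most abundant keratins everywhere, and Krt34 (hair) carries the promoter motif that was most common among keratins. Each sequence is the 250 bases before the RefSeq transcription start on GRCm38.p6, on the strand of the gene, and capitals mark TATAAA. The RefSeq start of Krt14 lies inside the longer GENCODE gene.
Krt5 (chr15:101712906-101713155, minus strand): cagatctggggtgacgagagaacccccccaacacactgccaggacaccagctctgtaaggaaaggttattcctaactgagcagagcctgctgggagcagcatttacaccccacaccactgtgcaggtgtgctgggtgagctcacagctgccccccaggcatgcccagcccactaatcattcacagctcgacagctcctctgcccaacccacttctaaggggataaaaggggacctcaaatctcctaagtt
Krt14 (chr11:100206031-100206280, minus strand): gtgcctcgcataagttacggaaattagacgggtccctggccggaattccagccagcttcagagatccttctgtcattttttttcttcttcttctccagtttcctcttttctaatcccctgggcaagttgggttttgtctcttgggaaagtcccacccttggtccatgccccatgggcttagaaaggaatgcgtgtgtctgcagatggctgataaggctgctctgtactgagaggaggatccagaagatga
Krt18 (chr15:102027966-102028215, plus strand): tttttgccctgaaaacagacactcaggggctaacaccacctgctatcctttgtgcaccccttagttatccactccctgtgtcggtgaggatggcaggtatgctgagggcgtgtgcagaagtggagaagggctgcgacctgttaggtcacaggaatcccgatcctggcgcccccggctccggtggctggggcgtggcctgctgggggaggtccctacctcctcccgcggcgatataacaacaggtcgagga
Krt34 (chr11:100041555-100041804, minus strand): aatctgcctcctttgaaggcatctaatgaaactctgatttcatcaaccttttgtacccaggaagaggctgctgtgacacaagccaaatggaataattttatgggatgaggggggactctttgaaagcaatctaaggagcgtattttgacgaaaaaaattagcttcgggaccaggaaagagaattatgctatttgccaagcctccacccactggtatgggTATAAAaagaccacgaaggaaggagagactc

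RefSeq windows of 300 bases, from 250 before to 50 after the start, were matched to 36 of the 54 keratins, 1 of them with 2 windows. TATAAA, the letters of the TATA box, was found on either strand in 19 of the 37 keratin windows (51.4%) and in 13.6% of all 32851 windows of that length. In 13 keratin windows (35.1%) it lay on the gene's own strand 20 to 40 bases before the start, against 1.99% of all windows. The GC box letters GGGCGG, a site for SP1 family factors, were found in 2 keratin windows (5.41%) and in 35.7% of all windows. TGANTCA, the AP-1 site, was found in 2 keratin windows (5.41%) against 7.81% of all. CTTTGA, the core letters bound by the TCF/LEF partners of beta-catenin, was found in 9 (24.3%) against 16.0% of all. Krt34 has TATAAA 31 bases before its start, and the letters of the TATA box, the GC box and the AP-1 site were not found in the windows of Krt5, Krt14 and Krt18. The window of Krt14 lies inside the longer GENCODE gene, so it does not cover the bases before that gene's own start. These matches describe the letters in the windows only.

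Library totals ranged from 28334730 to 40408723 counts. The primary libraries differed from each other in ways that touch the keratins. Over all genes, the chi-square per gene between 2 libraries was 43.4 to 74.1 for primary 1 against the metastases. It was 23.3 to 76.3 among the metastases, and 753 and 307 for primary 1 against primary 2 and primary 3. A fit without primary 1 thus leaves out the primary library nearest to the metastases, and why it lay there was not tested. Primary 1 lay within the range of the 6 metastases for 16 of the 28 keratins tested (57.1%), against 70.9% of all genes tested. Primary 3 was the highest library for 20 of the 28 keratins (71.4%), against 18.6% of all genes tested. These include Krt16, Krt42, Krt84 and Krt87, which passed the low-count filter only through the primary libraries. Primary 3 also held 7582 CPM (counts scaled to the library's total) summed over 9 seminal vesicle and epididymis genes, where no other library exceeded 29.0 CPM. The part of that tissue in the keratin levels of primary 3 was not tested. For keratins described singly, a fit that left out 1 primary library is given where it changed the call or the direction against the mean of both sites. Distal 2 and distal 3 held 602 and 820 CPM of 7 skeletal muscle genes, against at most 7.10 CPM elsewhere.

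The keratins that fell in the metastases included all 3 of the basal layer, and the 5 with the largest fold changes among those that fell were Krt15, Krt5, Krt6a, Krt16 and Krt84. When the mean of both metastatic sites was compared with primary tumours, 10 of the 28 keratins tested fell and none rose at an edgeR adjusted p below 0.05, while 3.71% of all genes were called (676 of 18204) and 3.68% fell. The 10 were Krt5, Krt14 and Krt15 of the basal layer, Krt6a and Krt16 of activated epidermis, Krt13 of internal stratified epithelia, Krt19 of simple epithelia, the hair and nail keratins Krt84 and Krt87, and Krt42, which was placed in no group. The low-count filter asks for about 10 counts in at least 3 libraries, and 4 of the 10 (Krt16, Krt42, Krt84 and Krt87) reached that minimum in no metastasis. They could be tested only because they were high in primary tumours. Of all genes, 79 reached the minimum in no metastasis and 83.5% of these were called lower, so the 4 calls are a description. Krt6a reached the minimum in 1 metastasis, so it too needed its primary libraries to pass. Of the 24 keratins that reached it in at least 1 metastasis 6 fell, Krt6a among them, against 3.33% of such genes. Krt20, Krt83 and Krt222 reached it in 2 metastases and also needed primary counts to pass. This split therefore does not fully remove the part of the filter. The median log2 fold change of the 28 keratins was -2.65, against -0.04 over all genes tested, and 25 of the 28 values were negative. In 10 of the 28 keratins all 3 primary libraries lay above all 6 metastases, a pattern found in 5.99% of all genes tested. Krt6a, Krt16, Krt42, Krt84 and Krt87 are among these 10 and in the median, and needed their primary levels to pass the filter. Both numbers are therefore partly set by the filter and are a description. No keratin had all 3 primary libraries below all 6 metastases, a pattern found in 4.19% of all genes.

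**Figure D1:**
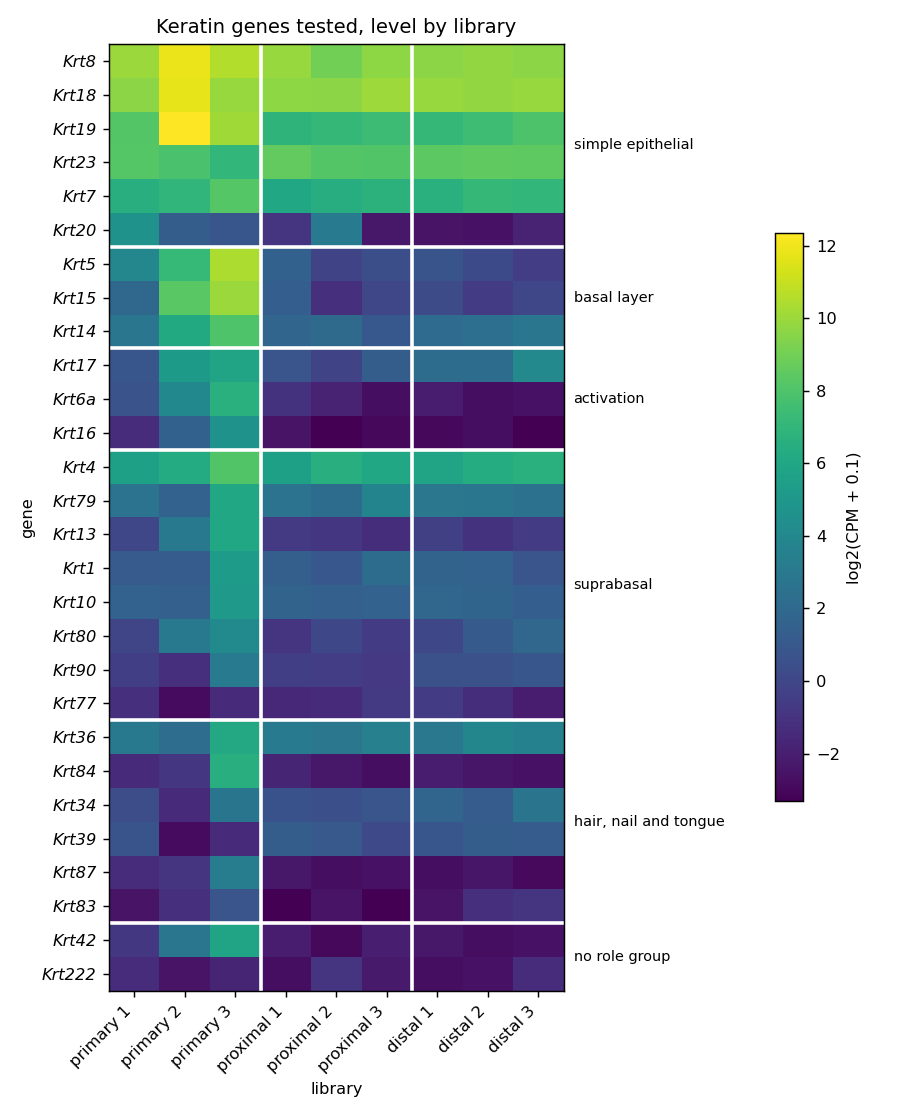
Level of the 28 keratins tested in each of the 9 libraries, as log2(CPM + 0.1) on the colour scale, with genes in rows by role group and libraries in columns (white lines separate the groups). Krt8 and Krt18 are high in all libraries, whereas Krt5, Krt14 and Krt15 are high in primary 2 and primary 3 and low in the 6 metastases.

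In edgeR's fit of all libraries, no keratin was called at either site alone. In proximal metastases against primary tumours 0 of 28 keratins were called by edgeR, with 0.0494% of all genes called, and 15 keratins had an unadjusted p below 0.05, all lower, against 18.2% of all genes. In distal metastases against primary tumours 0 of 28 were called, with 0.0879% of all genes called. There 13 keratins had an unadjusted p below 0.05, 12 lower and Krt23 higher, against 17.4% of all genes. DESeq2 called 12 keratins in the proximal comparison, where it called 8.19% of all genes, and 8 in the distal comparison, where it called 7.93%. Both comparisons share the 3 primary libraries. Without primary 1, edgeR called 16 of the same 28 keratins in the proximal comparison (28.9% of the same genes) and 15 in the distal one (27.5% of the same genes).

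The 10 calls against the mean of both sites depended on which library was left out. Without primary 1, 20 of the same 28 keratins were called, 18 lower and 2 higher, while 35.1% of the same genes were called. All 10 were among them. A further 6 keratins passed the low-count filter in that fit (Krt6b, Krt28, Krt33a, Krt35, Krt73 and Krt78), all through primary 2 and primary 3 alone, and they are given by their counts. Without primary 2, 6 of the 10 were called (1.33% of all genes), with Krt13, Krt14, Krt19 and Krt84 lost, and without primary 3 only Krt5 was (0.469% of all genes). Leaving out any 1 of the 6 metastases left none of the 10 called, with edgeR adjusted p from 0.0642 to 0.143 and log2 fold changes from -9.21 to -3.64. In those fits 0.116% to 0.706% of all genes were called. With all libraries, DESeq2 called 11 keratins (14.2% of all genes), 8 of them among the 10, and gave Krt84 and Krt87 no adjusted p. Its calls outside the 10 were Krt8, Krt17 and Krt80, all lower. Limma-voom called none of the 28 (0.417% of all genes).

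**Figure D2:**
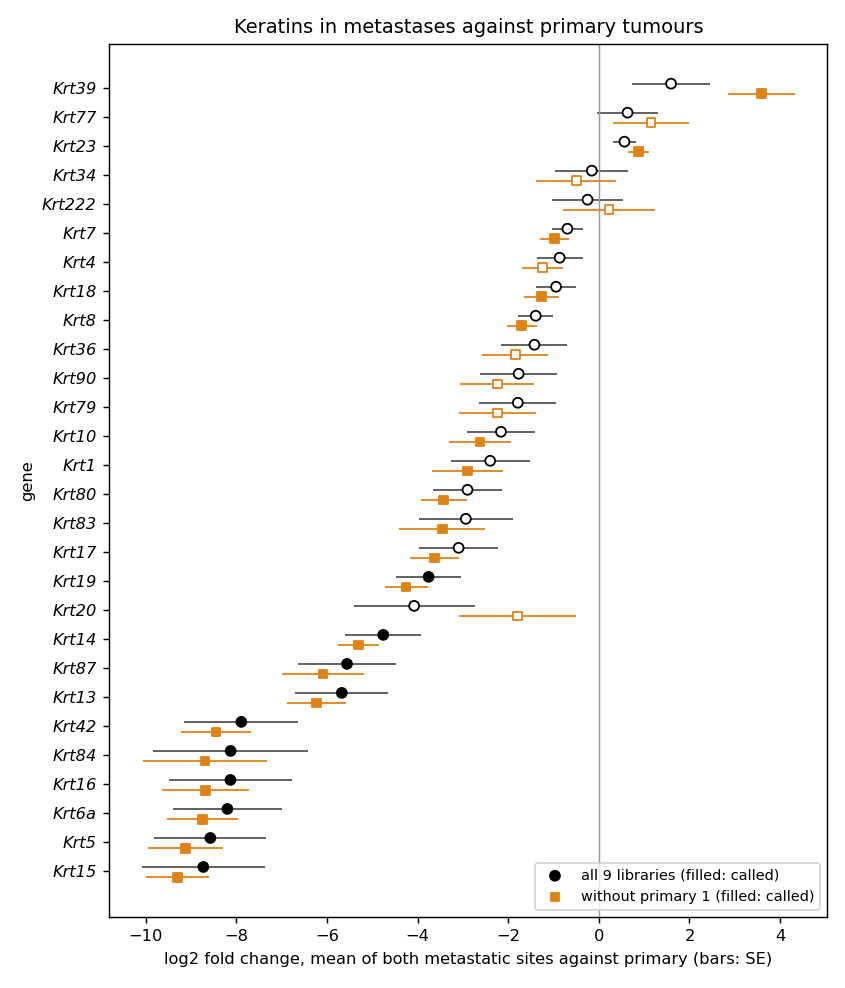
Log2 fold change of the 28 keratins tested, mean of both metastatic sites against primary tumours, with SE as bars. Circles are the fit of all 9 libraries and squares the fit without primary 1, and filled symbols mark an edgeR adjusted p below 0.05. Values run from -8.73 for Krt15 to 1.59 for Krt39 with all libraries.

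Simple epithelial keratins were the most abundant members in every metastasis, and 1 of the 6 tested, Krt19, fell, where 3.68% of all genes fell. Krt8 (ENSMUSG00000049382, chromosome 15, 101996698 to 102004482 on GRCm38) stood at 1010, 3764 and 1505 CPM across primary 1, 2 and 3. It stood at 958, 519 and 832 CPM in proximal and at 790, 909 and 780 CPM in distal 1, 2 and 3. All primary libraries lay above all metastases, primary 1 by a small margin, and the log2 fold change of -1.39 (SE 0.39) did not pass edgeR's test (adjusted p = 0.0902). Without primary 1 it was -1.70 (SE 0.33, edgeR adjusted p = 0.00873). DESeq2 with all libraries called Krt8 lower. Reads of Krt8 can be shared with a near-identical copy, since 26.9% of the 50-base windows of its transcripts also occur in Krt8-ps, not analysed here.

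Krt18, the type I partner of Krt8, stood at 800, 3484 and 960 CPM in primary 1, 2 and 3. Its metastases held 803, 785 and 1057 CPM at the proximal and 965, 896 and 950 CPM at the distal site. Only primary 2 lay outside the range of the metastases. The log2 fold change was -0.94 (SE 0.44, edgeR adjusted p = 0.219), and it was 0.05 without primary 2. Without primary 1 it was -1.27 (SE 0.39, edgeR adjusted p = 0.0419). Within the metastases Krt18 averaged 909 ± 104 CPM (SD, n = 6).

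Krt19, a type I keratin without a tail domain found in ducts and glandular cells, held 277, 5169 and 1100 CPM in primary 1, 2 and 3. It held 115, 136 and 167 CPM in proximal and 136, 178 and 248.6 CPM in distal metastases. The groups did not overlap, and the primary libraries themselves differed by more than the metastases did. Krt19 fell by 3.76 on the log2 scale (SE 0.72, edgeR adjusted p = 0.0340), with an adjusted p of 0.00118 without primary 1. Without primary 2, which held the highest value, the change was -2.10 and was not called, nor was that of -4.07 without primary 3.

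Krt23, a type I keratin of glandular and gastrointestinal epithelia, was placed the other way round. It stood at 301, 228 and 134 CPM in primary 1, 2 and 3, at 375, 283 and 266 CPM in proximal and at 334, 362 and 347 CPM in distal metastases. Primary 2 and primary 3 lay below all metastases, and primary 1 lay among them. The log2 fold change was 0.57 (SE 0.25, edgeR adjusted p = 0.209) with all libraries and 0.88 (SE 0.23, adjusted p = 0.0254) without primary 1. It was 1 of the 2 keratins that rose in that fit. The other was Krt39, a hair keratin named after its values were seen, at 1.56, 0.04 and 0.27 CPM in primary 1, 2 and 3 and 0.98 to 2.40 CPM in the metastases.

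Krt7, a type II keratin of ducts and urothelium, ranged from 89.6 to 289 CPM in primary tumours and from 65.5 to 139 CPM in metastases, and the groups overlapped. Its log2 fold change was -0.69 (SE 0.35, edgeR adjusted p = 0.243), and the value was -0.04 without primary 3 and -0.98 (SE 0.32, adjusted p = 0.0488) without primary 1. Krt20, a marker of intestinal and urothelial surface cells named after its values were seen, differed between single libraries more than between groups. It stood at 25.4 CPM in primary 1 and 8.41 CPM in proximal 2, with 2.38 and 1.73 CPM in the other primary libraries and at most 0.42 CPM in the other metastases. It was the 1 keratin with an unadjusted p below 0.05 between the metastatic sites.

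All 3 basal-layer keratins fell, where 3.68% of all genes fell. Krt5 (ENSMUSG00000061527, chromosome 15, 101707070 to 101712898 on GRCm38), the type II keratin of basal cells, held 15.4, 144 and 1353 CPM in primary 1, 2 and 3. It held 2.79, 0.82 and 1.25 CPM in proximal and 1.55, 1.05 and 0.63 CPM in distal metastases. Every primary library lay above every metastasis, and primary 3 lay 1004 times above the mean of the metastases while primary 1 lay 11.4 times above it. Krt5 fell by 8.57 on the log2 scale (SE 1.24, edgeR adjusted p = 0.0190). It was called without primary 1, without primary 2 and without primary 3, the last at -5.90, but not when a metastasis was left out. Its gene overlaps Gm44323 on the other strand, and the strand setting of the counting is not given in the sources used here.

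Krt15, a type I keratin of basal cells and of hair follicle stem cells, held 3.84, 315 and 1001 CPM in primary 1, 2 and 3. It held 2.48, 0.33 and 0.91 CPM in proximal and 1.12, 0.59 and 0.90 CPM in distal metastases. Primary 1 stood just above the highest metastasis, proximal 1. Krt15 fell by 8.73 on the log2 scale (SE 1.36, edgeR adjusted p = 0.0220), and without primary 3 the change was -7.25 and not called. Only Krt15 had a larger change than Krt5 among the 28.

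Krt14 (ENSMUSG00000045545, chromosome 11, 100203162 to 100207548 on GRCm38), the usual partner of Krt5, stood at 6.97, 72.7 and 256 CPM across primary 1, 2 and 3. It stood at 3.37, 4.16 and 1.86 CPM in proximal and at 4.32, 5.09 and 7.05 CPM in distal metastases. Distal 3 lay above primary 1, so the groups overlapped by this pair of libraries. Krt14 fell by 4.76 on the log2 scale (SE 0.84, edgeR adjusted p = 0.0287), and the change was -3.26 and not called without primary 3. Without primary 2 it was -5.00 and not called either (edgeR adjusted p = 0.0616). Counts of Krt14 are uncertain to the extent that 13.9% of its 50-base windows also occur in Krt16 or Krt17. The per-length level of Krt5 was 1.71, 1.53 and 4.09 times that of Krt14 in primary 1, 2 and 3 and 0.07 to 0.64 times in the metastases.

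**Figure D3:**
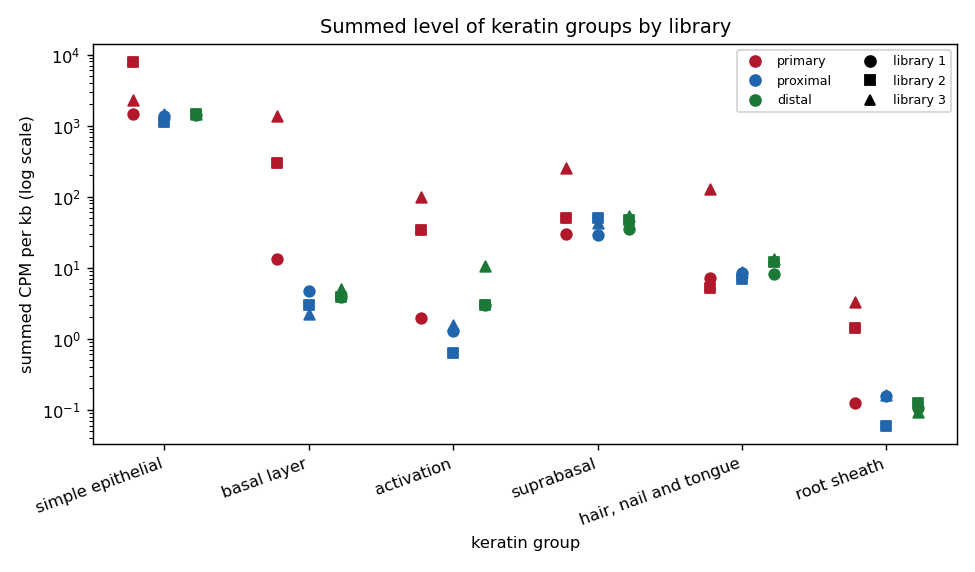
Summed level of each keratin group in CPM per kb of transcript (log axis), 1 point per library, with colour for the group of samples and shape for the library number. The basal-layer sum is 13.4, 294 and 1356 in primary 1, 2 and 3 and 2.196 to 4.97 in the metastases, whereas the simple epithelial sums of primary 1 and the metastases nearly coincide.

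Activation keratins are induced in wounded and hyperproliferative epidermis. Of the 3 tested, Krt6a and Krt16 fell and Krt17 was not called, where 3.68% of all genes fell. Krt16 reached the minimum of the low-count filter in no metastasis and Krt6a in 1, so both needed their primary libraries to pass. Their calls are therefore a description. Krt6a (type II) held 1.502, 15.9 and 98.5 CPM in primary 1, 2 and 3 and 0.05 to 0.39 CPM in the metastases, without overlap. It fell by 8.19 on the log2 scale (SE 1.20, edgeR adjusted p = 0.0198), and the change was -6.03, not called, without primary 3. Krt16, the type I partner of Krt6a, held 0.30, 2.77 and 24.8 CPM in primary 1, 2 and 3, and the 6 metastases together held 7 counts. It fell by 8.13 (SE 1.36, edgeR adjusted p = 0.0257), and the change was -5.51, not called, without primary 3. The numbers of Krt6a are uncertain, since 45.7% of its 50-base windows also occur elsewhere, mainly in Krt6b, and so are those of Krt16, with 37.6% shared.

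Krt17, a type I keratin of skin appendages and activated basal cells, differed in that the distal libraries held more of it. It stood at 1.72, 37.4 and 56.5 CPM in primary 1, 2 and 3, at 1.64, 0.84 and 2.40 CPM in proximal and at 4.52, 4.62 and 16.6 CPM in distal metastases. Primary 1 lay within the metastasis range, and every distal library lay above every proximal one. The log2 fold change between the sites, distal against proximal, was 2.39 (SE 1.09, unadjusted p = 0.0592, edgeR adjusted p = 1.0). Against primary tumours it was -3.09 (SE 0.87, adjusted p = 0.0897), and -3.63 (SE 0.54, edgeR adjusted p = 0.00318) without primary 1. DESeq2 with all libraries called Krt17 lower too.

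Of 8 suprabasal keratins tested, Krt13 alone fell, where 3.68% of all genes fell. Krt13, the type I keratin of oral, oesophageal and other internal stratified epithelia, held 0.91, 7.96 and 65.4 CPM in primary 1, 2 and 3 and 0.32 to 0.68 CPM in the metastases, without overlap. It fell by 5.67 on the log2 scale (SE 1.03, edgeR adjusted p = 0.0302), and the change was -3.18, not called, without primary 3. Without primary 2 the change of Krt13 was -6.10 and not called either (edgeR adjusted p = 0.0535). Krt4, its type II partner, behaved differently. It stood at 48.6, 79.7 and 276 CPM in primary 1, 2 and 3 and at 46.9 to 99.0 CPM in the metastases, so only primary 3 lay outside. The log2 fold change of Krt4 was -0.86 (SE 0.51, edgeR adjusted p = 0.292), and it was 0.22 without primary 3.

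The epidermal pair Krt1 and Krt10 was low outside primary 3. Krt1 stood at 2.12, 2.22 and 38.8 CPM in primary 1, 2 and 3 and at 1.66 to 4.45 CPM in the metastases. Krt10 stood at 2.95, 2.69 and 34.4 CPM and at 2.49 to 3.52 CPM. For both genes primary 1 and primary 2 lay within the metastasis range. The log2 fold changes were -2.40 for Krt1 (SE 0.87, edgeR adjusted p = 0.157) and -2.16 for Krt10 (SE 0.74, adjusted p = 0.141), and they turned to 0.33 and 0.09 without primary 3. Without primary 1 both were called lower, Krt1 at -2.90 (SE 0.79, edgeR adjusted p = 0.0281) and Krt10 at -2.62 (SE 0.68, adjusted p = 0.0231). Krt79, a marker of the upper hair follicle and sebaceous duct, was also highest in primary 3, at 66.6 CPM. It held 6.06 CPM in primary 1, within the 4.59 to 13.4 CPM of the metastases, and 2.89 CPM in primary 2, below them. Its change of -1.79 on the log2 scale (SE 0.85, edgeR adjusted p = 0.225) turned to 0.71 without primary 3. Of the other suprabasal genes tested, Krt80, Krt90 and Krt77 had log2 fold changes of -2.90, -1.77 and 0.63, none of them called. Krt80 stood at 0.89, 7.84 and 17.9 CPM in primary 1, 2 and 3 and at 0.44 to 3.46 CPM in the metastases, and was called at -3.42 (SE 0.50, edgeR adjusted p = 0.00299) without primary 1. Krt90 turned to 0.91 without primary 3.

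Hair, nail and tongue keratins make up 16 of the 54 genes, and their signal came largely from primary 3. Their summed level was 12.0, 8.82 and 253 CPM in primary 1, 2 and 3 and 11.2 to 21.6 CPM in the metastases. Of 6 tested, Krt84 and Krt87 fell, where 3.68% of all genes fell, and both could be tested only through their primary levels. Krt84, a type II keratin of the tongue's filiform papillae and nail, held 0.27, 0.47 and 92.0 CPM across primary 1, 2 and 3, and at most 0.21 CPM in any metastasis. It fell by 8.12 on the log2 scale (SE 1.71, edgeR adjusted p = 0.0448), but the change was -1.73, not called, without primary 3, so this 1 library carried the size of the change. Without primary 2 the change was -8.71 and not called either (edgeR adjusted p = 0.0503). Krt87 held 0.30, 0.43 and 9.38 CPM in primary 1, 2 and 3 and 0.03 to 0.10 CPM in the metastases. Its change was -5.56 (SE 1.09, edgeR adjusted p = 0.0365) and -2.34, not called, without primary 3, and 36.9% of its 50-base windows occur in other genes.

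Krt36, a type I keratin of tongue papillae and nail, was the most abundant hair-type keratin in the metastases. It stood at 9.14, 7.42 and 11.3 CPM in proximal and at 7.70, 14.2 and 11.9 CPM in distal metastases, with 8.07, 4.76 and 69.3 CPM in primary 1, 2 and 3. Primary 1 lay within the metastases, primary 2 below and primary 3 above them. The log2 fold change was -1.42 (SE 0.73, edgeR adjusted p = 0.248) with all libraries and 0.67 without primary 3. Krt35, a type I keratin of the hair cuticle and matrix, held 35.8 CPM in primary 3 and at most 0.35 CPM in any other library. It did not pass the filter on low counts, with 1058 counts in primary 3, 6 and 9 in the other primary libraries and 0 to 8 in each metastasis. Krt34, a type I hair cortex keratin, stood at 1.18, 0.27 and 6.57 CPM across primary 1, 2 and 3, at 1.30 to 1.66 CPM in proximal and at 2.24 to 6.28 CPM in distal metastases, and the log2 fold change of -0.15 (SE 0.80) was not called and turned to 1.71 without primary 3. Of its 50-base windows 33.1% occur in other hair keratins.

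The other untested members were mostly counts of primary 3. Krt6b, Krt31, Krt33a and Krt81, named after their values were seen, each had 262 to 348 counts in the 3 primary libraries and 1 or 2 in the 6 metastases. For Krt81 the ratio of scaled levels was 434 (Poisson interval 119 to 3598, counting error only), and for Krt31 it was 327 (89.6 to 2712). Primary 3 alone held 337 and 257 of these counts, and without it the ratios were 20.2 (4.4 to 187) and 9.16 (1.5 to 96.2). For Krt33a and Krt6b primary 3 held 240 and 301 counts, and the ratios without it were larger, at 125 (20.9 to 5064) and 58.6 (14.96 to 505). These genes share stretches with close copies, 37.7% of 50-base windows for Krt81 and 50.1% for Krt6b, so which of the copies was read is uncertain. Krt78 had 394 counts in the primary libraries and 16 in the metastases, and Krt32, Krt33b and Krt86 had 86 to 122 and 5 to 13. Krt2, Krt9, Krt24, Krt40, Krt76 and Krt88 had at most 13 counts in either set of libraries. The 9 root sheath keratins summed to 0.27, 2.73 and 7.995 CPM in primary 1, 2 and 3 and to 0.13 to 0.34 CPM in the metastases, and none was tested with all libraries. Krt42, a type I keratin expressed in mouse nail, was placed in no group and is not in the hair, nail and tongue sums. It held 0.48, 6.87 and 55.4 CPM across primary 1, 2 and 3, and at most 0.15 CPM in the metastases. It fell by 7.89 on the log2 scale (SE 1.26, edgeR adjusted p = 0.0236), and the change was -5.37, not called, without primary 3.

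Levels of different genes were compared per kb of transcript. In all 6 metastases and in primary 1 the order of the 6 highest keratins was the same: Krt18, Krt8, Krt23, Krt19, Krt4 and Krt7. This order depends on the transcript lengths used. By CPM, Krt7 lay above Krt4 in primary 1 and in all metastases but proximal 2. Krt8 lay above Krt18 by CPM in primary 1, proximal 1 and distal 2. Shares below are per kb. Krt18 made up 39.3% to 48.5% of the summed keratin level in the metastases and Krt8 22.8% to 34.5%, ranges that do not meet. Krt23 made up 11.2% to 16.9% and Krt19 5.12% to 10.1%. Krt4 made up 1.55% to 3.80% and Krt7 1.13% to 2.22%, so these last neighbours overlapped between libraries. The order of the other primary libraries differed: Krt19 led primary 2 with 40.03%, and Krt8 led primary 3 with 18.4%, followed by Krt19 at 16.7% and Krt18 at 16.0%.

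The basal-layer keratins made up 0.874%, 3.58% and 32.5% of the keratin level in primary 1, 2 and 3 and 0.145% to 0.332% in the metastases. The simple epithelial keratins made up 96.5%, 95.3% and 54.9% in primary 1, 2 and 3 and 94.7% to 96.9% in the metastases. Primary 3 was the 1 library with a mixed composition. The summed level of all keratins was 2609, 13490 and 7626 CPM in primary 1, 2 and 3 and 1944 to 2622 CPM in the metastases. Primary 1 lay within that range, and primary 2 and primary 3 above it.

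**Figure D4:**
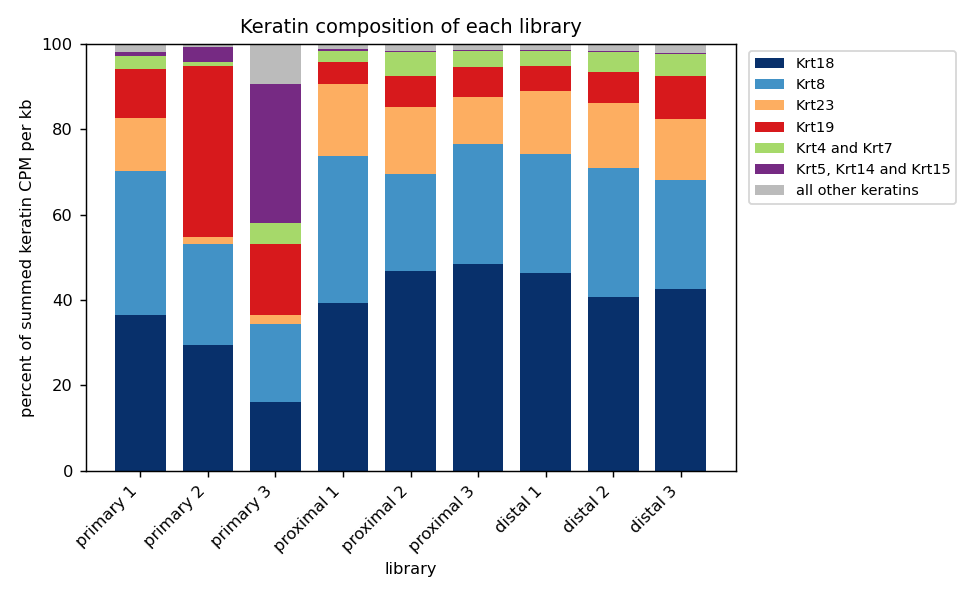
Share of the summed keratin level, in percent of CPM per kb, taken by the leading keratins in each of the 9 libraries. Primary 1 and the 6 metastases share the order of the 6 highest keratins, primary 2 is led by Krt19 at 40.03%, and Krt5, Krt14 and Krt15 take 32.5% in primary 3.

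Filaments need both types, and the balance of their RNA differed between groups by less than the spread of the libraries. Type II genes made up 34.9% ± 8.57 (SD, n = 3) of the summed keratin level in primary tumours, 32.9% ± 4.43 (SD, n = 3) in proximal and 32.8% ± 2.36 (SD, n = 3) in distal metastases. Within the main pair, the per-length level of Krt8 relative to Krt18 was 0.93, 0.79 and 1.15 in primary 1, 2 and 3 and 0.49 to 0.88 in the metastases. Proximal 1, at 0.88, lay above primary 2, so the ranges overlapped.

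No keratin was called between the metastatic sites. Between distal and proximal metastases 0 of 28 keratins were called by edgeR, with 0.0% of all genes called, and 1 keratin had an unadjusted p below 0.05, against 2.06% of all genes. DESeq2 called 83 genes (0.456%), none of them a keratin. Summed keratin level averaged 2295 ± 312 CPM (SD, n = 3) in proximal and 2555 ± 112 CPM (SD, n = 3) in distal metastases, a difference within the spread of the proximal libraries. The median log2 fold change of the 28 keratins was 0.10, against -0.01 over all genes tested.

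Transcription factors known to drive epithelial keratin genes were also read. Of 12 tested, 5 fell against the mean of both sites and none rose: Trp63, Klf4, Elf5, Tfap2a and Tfap2c. The share of all genes that fell was 3.68%, and the list had a median log2 fold change of -1.58, against -0.04 over all genes. Without primary 1, 8 of the 12 fell, against 18.6% of all genes. The fit without primary 2 called 2 of the 12 lower (1.32% of all genes), and so did the fit without primary 3 (0.469%). Both times these were Trp63 and Klf4, so Tfap2a and Tfap2c were called in neither fit. Trp63 encodes p63, the master regulator of basal and stratified epithelium, and stood at 2.23, 2.69 and 106 CPM in primary 1, 2 and 3 and at 0.13 to 0.47 CPM in the metastases. It fell by 6.96 on the log2 scale (SE 1.23, edgeR adjusted p = 0.0289). Primary 3 carried much of that size, and without it the change was -3.04 (SE 0.39, edgeR adjusted p = 0.0372). In primary 2 Krt5 was at 144 CPM while Trp63 was close to its level in primary 1. Elf5, a factor of glandular epithelium, held 0.56, 58.2 and 161 CPM in primary 1, 2 and 3 and 0.23 to 0.55 CPM in the metastases, so primary 1 lay just above them, and Elf5 was not called without primary 2 or without primary 3. Klf4, a factor of the upper epidermal layers, stood at 64.2, 51.1 and 87.8 CPM in primary 1, 2 and 3 and at 13.9 to 17.5 CPM in the metastases. It fell by 2.13 (SE 0.17, edgeR adjusted p = 0.00373), and for this factor primary 1 stood with the other primary libraries. Grhl2 and Elf3, general epithelial factors, had log2 fold changes of -0.05 (SE 0.12) and -0.09 (SE 0.28), not called.

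Of 6 factors of the hair program tested, none was called with all libraries. Without primary 1 all 6 were called, Msx2, Gata3 and Cux1 lower and Lef1, Dlx3 and Bmp4 higher, in a fit that called 18.6% of all genes lower and 16.2% higher. Hoxc13, a direct regulator of hair keratin genes, held at most 0.20 CPM in any library. Foxn1 held 1.63 CPM in primary 3 and at most 0.13 CPM elsewhere. Lef1, a partner of beta-catenin, stood at 55.0, 7.14 and 20.97 CPM in primary 1, 2 and 3 and at 54.2 to 68.1 CPM in the metastases, and its log2 fold change of 1.16 (SE 0.53) was not called (edgeR adjusted p = 0.217). It was 2.15 (SE 0.40, edgeR adjusted p = 0.00716) without primary 1, which lay among the metastases.

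Among 13 tested genes for proteins that bind keratin filaments or anchor them, 3 fell: Tchh, Pof1b and Dst. The share of all genes that fell was 3.68%, and without primary 1, 8 of the 13 fell and Jup rose, against 18.6% and 16.2% of all genes. The fit without primary 2 called 2 of the 13 lower (1.32% of all genes). The fit without primary 3 called 1 lower, Pof1b (0.469% of all genes). Tchh encodes trichohyalin of the inner root sheath and stood at 1.37, 23.7 and 62.4 CPM in primary 1, 2 and 3 and at 0.14 to 0.57 CPM in the metastases (log2 fold change -6.32, SE 0.96, edgeR adjusted p = 0.0203), and was not called without primary 3. Dsp and Jup, the desmosome genes desmoplakin and plakoglobin, were the most abundant with Plec, and Dsp had a log2 fold change of -0.16 (SE 0.15), not called. Of 10 other intermediate filament genes tested, Nefh fell, and it was not called without primary 2 or without primary 3. Vim, the vimentin gene of mesenchymal cells, stood at 2063, 227 and 370 CPM in primary 1, 2 and 3 and at 1303 to 2113 CPM in the metastases. Primary 1 lay among the metastases, and the log2 fold change of 0.97 (SE 0.65) was not called (edgeR adjusted p = 0.337). Without primary 1 it was 2.56 (SE 0.26, edgeR adjusted p = 0.000794).

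Marker genes of other epithelia, without keratins, differed in how they were spread over the libraries. Counts in this paragraph are from the fit of all libraries unless another is named, and stand against 3.68% of all genes called lower. The fit without primary 2 called 3 squamous, 2 basal, 2 luminal, 1 urothelial, 1 hair and 2 seminal vesicle markers lower. That fit called 1.32% of all genes lower. The fit without primary 3 called 1 squamous, 1 basal, 2 luminal, 1 urothelial, 0 hair and 1 seminal vesicle marker lower. That fit called 0.469% of all genes lower. Of 14 markers of squamous differentiation 10 were tested and 6 fell. They summed to 142, 526 and 527 CPM in primary 1, 2 and 3 and to 11.7 to 41.9 CPM in the metastases, so all primary libraries, primary 1 included, lay above all metastases. In primary 1 most of the sum was Tgm3, a transglutaminase, at 117 CPM. Of 5 prostate basal cell markers 3 fell (Trp63, Itgb4 and Col17a1), Itga6 had a log2 fold change of -0.15, not called, and Lamb3 was at 0.76 (SE 0.18, edgeR adjusted p = 0.0551). Their sums were 533, 723 and 1303 CPM in primary 1, 2 and 3 and 584 to 780 CPM in the metastases. Without primary 1, 3 of the 5 fell and Lamb3 rose, in a fit that called 18.6% of all genes lower and 16.2% higher. Of 7 tested prostate luminal markers 4 fell, with sums of 274, 965 and 1020 CPM in primary 1, 2 and 3 and 177 to 235 CPM in the metastases, and Msmb was at or near 0 in all libraries. Of 4 urothelial markers 2 fell (Upk1a and Upk1b), and the sums of 186, 141 and 377 CPM in primary 1, 2 and 3 overlapped the 179 to 265 CPM of the metastases. Of 5 tested hair shaft and root sheath markers 1 fell (Tchh). That list summed to 573, 722 and 492 CPM in primary 1, 2 and 3 and 590 to 701 CPM in the metastases, lowest in primary 3, since Crym, its most abundant member, was at 188 CPM there and at 435 to 602 CPM elsewhere. Its members Padi3 and Dsg4 went the other way, with 41.8 and 23.95 CPM in primary 3 against at most 1.91 CPM elsewhere. Of 4 tested seminal vesicle genes 3 fell (Svs4, Svs5 and Svs6). The part of these tissues in the keratin differences was not tested.

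Markers of host tissue at the metastatic sites were compared in the same way, since keratins are made by mesothelium, lung epithelium and hepatocytes too. Of 7 mesothelial markers tested none was called, and their sums of 140, 91.4 and 43.8 CPM in primary 1, 2 and 3 overlapped the 76.3 to 266 CPM of the metastases. Of 7 lung epithelial genes Sftpa1 had no count, and Sftpc held at most 0.07 CPM in any library. The list summed to at most 5.12 CPM in the metastases, and so surfactant genes were at or near 0 in the distal samples that 1 label places in the lung. Adipocyte genes summed to 150.5, 9.40 and 42.6 CPM in primary 1, 2 and 3 and to 23.5 to 213 CPM in the metastases. The 6 hepatocyte markers summed to 4035, 121 and 651 CPM in primary 1, 2 and 3 and to 5234 to 7570 CPM in the metastases, above every primary library. Alb, the albumin gene, made up nearly all of it, with 4030, 114 and 648 CPM in primary 1, 2 and 3 and 5232 to 7567 CPM in the metastases, and the highest value of any other member was 49.7 CPM, for Apoa1 in distal 1. None of the 6 was called with all libraries, and Alb was at 2.04 (SE 0.93, edgeR adjusted p = 0.217) and at 4.12 (SE 0.72, adjusted p = 0.00570) without primary 1. Hepatocytes also make Krt8 and Krt18, and the part of such cells in these keratin levels was not tested. Leukocyte and endothelial markers had no called member with all libraries.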

How the data were processed

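RNA was measured in 9 libraries, 3 per group by tissue label, and library numbers within a group follow the order of deposition and only name libraries. The deposited files held whole-number counts per Ensembl gene, with 47069 rows, of which 46488 were matched to a symbol and 581 were not. The submitters' processing notes list, in no order, HTSeq 0.6.0, TopHat2 2.1.0, Bowtie2 2.2.6.0, FastQC 0.11.4, DESeq2 1.14.1 and R 3.2.3, with the build GRCm38.p3. How the authors set strand, annotation and filters is not given in the sources used here, so counts of overlapping genes are uncertain. An allele given in the labels besides Ctnnb1 and 1 marker gene are not reported here, and the driver of the prostate deletion is not given in the sources used here. The keratins and gene lists were chosen with earlier results of these data known.

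CPM values were computed from the counts after TMM scaling of the library totals. Gene positions and lengths came from GENCODE M21, and CPM per kb used the median length of a gene's coding transcripts. Genes passing edgeR's filterByExpr (minimum count 10, minimum total 15) were tested with edgeR 4.0.16 in R 4.3.3, by its robust quasi-likelihood F-test, in 1 model of the 3 groups over the 9 libraries (6 residual degrees of freedom). It gave 4 contrasts: each metastatic site and the mean of both sites against primary, and one site against the other. Genes with a p below 0.05 after Benjamini-Hochberg adjustment over all genes tested were called. The fit was also run on simulated counts, and no result of that run is used here. Named keratins were those reaching a mean of 10 CPM in a group, those called, and a panel of 12. From the other lists, called members and the 4 most abundant could be named, and other list genes were chosen after their values were seen. Intervals of ratios with 3 or fewer counts in a group are exact 95% Poisson intervals and cover counting error only. No 2 libraries agreed within sampling noise, with a lowest chi-square per gene of 23.3. Alternatives were median-ratio size factors, library totals, 2 other filters, DESeq2 1.42.0, limma-voom (limma 3.58.1) with and without sample quality weights, no robust shrinkage, the compared groups alone, and leaving out each library.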

Additional observations from a re-analysis of the deposited data

How the results depend on the processing

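No paired analysis was possible because the labels do not say which libraries share a mouse. Keratins called in the proximal comparison (0) became 12 with DESeq2 and 18 with voom quality weights (19.4% of all genes called), and 0 to 22 when a library was left out. In the distal comparison (0) they became 8 with DESeq2 and 12 with quality weights (16.7% of all genes), and 0 to 21 when a library was left out. Against the mean of both sites (10) they became 5 of 20 tested at a minimum count of 50 (2.78% of all genes), 0 with limma-voom (13 at an unadjusted p below 0.05, as were 25.2% of all genes) and 20 with quality weights (20.9% of all genes), and 0 to 26 when a library was left out. They became 6 of 24 among keratins at the filter's minimum in at least 1 metastasis (3.33% of such genes fell), a split chosen after seeing the data. Krt6a, among these 6, reached the minimum in 1 metastasis and needed its primary libraries to pass. The highest counts with a library left out, all without primary 1, include 6 keratins that passed the low-count filter only through primary 2 and primary 3. Of 1378 values of named keratins under the alternatives, leaving out those to which DESeq2 gave no adjusted p, 1177 kept direction and side of the threshold and 30 turned direction, all of these when 1 library was left out. The cause was not tested.

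The following ranges of log2 fold change, over fits that left out 1 library, crossed 0 among the keratins named by rule. In the proximal comparison they were -2.80 to 0.45 for Krt1, -1.35 to 0.11 for Krt4, -2.70 to 0.038 for Krt10, -1.31 to 0.00 for Krt18, -2.07 to 0.53 for Krt36 and -2.22 to 0.85 for Krt79. In the distal comparison they were -3.02 to 0.22 for Krt1, -1.15 to 0.32 for Krt4, -0.72 to 0.22 for Krt7, -2.60 to 0.14 for Krt10, -1.22 to 0.09 for Krt18, -1.78 to 0.82 for Krt36 and -2.46 to 0.57 for Krt79. Against the mean of both sites they were -2.91 to 0.33 for Krt1, -1.25 to 0.22 for Krt4, -2.65 to 0.087 for Krt10, -1.27 to 0.045 for Krt18, -1.93 to 0.67 for Krt36 and -2.32 to 0.71 for Krt79. Of these, the highest value was reached without primary 2 for Krt18 and without primary 3 for the others. Between the sites, where no keratin was called, they were -0.48 to 0.20 for Krt1, -0.005 to 0.49 for Krt4, -0.93 to 0.073 for Krt5, -0.12 to 0.29 for Krt8, -0.005 to 0.23 for Krt10, -0.95 to 0.49 for Krt15, -1.10 to 0.89 for Krt16, -0.56 to 0.31 for Krt79 and -0.66 to 0.36 for Krt84. Of the keratins named after their values were seen and the other tested ones, ranges against primary tumours also crossed 0 for Krt20 (-5.24 to 0.56 in proximal), Krt34 (-1.41 to 0.99 in proximal and -0.69 to 1.71 against the mean of both sites), Krt83 (-1.80 to 0.45 in distal), Krt90 (-2.98 to 0.24 in proximal, -1.64 to 1.58 in distal and -2.31 to 0.91 against the mean) and Krt222 (-1.12 to 0.52 in proximal and -0.82 to 0.22 against the mean).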
